A study of Caenorhabditis elegans with 18 samples.

Results

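The mutant alleles *tcer-1(tm1452)* and *tcer-1(glm27)* were compared with each other by mRNA-seq. Of the 29970 genes in the mRNA table, the 17037 with a mean of at least 2 normalized counts over the 9 mRNA libraries were tested, and the remaining 12933 were not. The comparison rests on 6 of the 18 libraries of the study: 3 replicates of *tcer-1(tm1452)* (strain CF2166) and 3 of *tcer-1(glm27)* (strain AGP278). The 3 wildtype (N2) mRNA libraries entered the same fit and are set beside them, and the 9 sRNA-seq libraries of the same strains supplied a second readout. By the labels, the animals were whole gravid hermaphrodites, grown at 20 °C on *E. coli* OP50 and collected 72 h after plating as synchronized L1 larvae. *tcer-1(glm27)* is a whole-gene deletion made by genome editing. The study's text describes *tcer-1(tm1452)* mutants as developmentally asynchronous, so a group of that genotype can hold animals of more than 1 stage. It describes *tcer-1(glm27)* as free of this asynchrony. Differences due to the allele and differences due to a mix of stages therefore cannot be told apart in this comparison. The study calls its sequencing replicates biological. Neither it nor the labels say whether they came from separate cultures, so the p-values measure the spread between these libraries. In RNA from whole animals, fewer cells of a type and less RNA per cell cannot be told apart.

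TCER-1 is a transcription elongation and splicing factor and is best known for its roles in longevity, fertility and immunity. A hermaphrodite of *C. elegans* makes sperm in the last larval stage, then switches its germline to oocytes, and as a gravid adult carries embryos in the uterus. RNA of whole gravid adults therefore mixes transcripts of the soma, of the germline, of stored sperm and of early embryos. The epidermis lays down a new collagen cuticle at each molt, and each stage uses its own set of collagen genes.

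The mRNA libraries held about 18000000 to 27900000 reads, as read from the value of 1 read in each. Between 81.2 and 92.8% of low values lay within 5% of a whole number of reads. The 10 genes of highest mean held 7.14 to 10.7% of the total. Across genes, the values of libraries of 1 genotype correlated at r = 0.986 to 0.989, and those of the 2 alleles at r = 0.944 to 0.955, where genes are not independent replicates. The median log2 difference of all tested genes was 0.06 between the alleles.

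The targeted gene was read first. *tcer-1* (WBGene00022855, chromosome II, 7045874 to 7050071, reverse strand, WBcel235) had 959, 862 and 1026 normalized counts in *tcer-1(tm1452)*, against 529, 496 and 470 in *tcer-1(glm27)* and 5877, 6034 and 6346 in wildtype. Both alleles thus lay well below wildtype, with log2 differences of -2.68 and -3.61. Between the alleles the log2 difference was 0.93 (SE 0.07, limma adjusted p = 7.04e-08), just short of the 2-fold required for a call. The guides used to make *tcer-1(glm27)* are shown because they fix which part of the gene can give reads in that strain. They are given 5′ to 3′, with the PAM, read from the genome, in capitals.
guide at the 5′ end, chrII:7050106-7050125, forward strand: aaaacagtagtctagcataaTGG
guide at the 3′ end, chrII:7045505-7045524, reverse strand: tccaacgataaatttgagtaCGG
Each guide matched the genome once, and the repair template joins the bases on either side of II 7045509 to 7050121, a deletion of 4613 bases that takes all 3430 exonic bases of *tcer-1*. The gene was still listed at 470 to 529 normalized counts in *tcer-1(glm27)*. Of its 3109 exonic stretches of 50 bases, 968 occur elsewhere in the genome, 851 of them in the neighbouring pseudogene *ZK1127.6* (II 7043055 to 7044371, forward strand), outside the deletion. *ZK1127.6* had 353, 338 and 338 normalized counts in *tcer-1(tm1452)*, against 158, 179 and 156 in *tcer-1(glm27)* and 1558, 1687 and 1723 in wildtype. Its part in the *tcer-1* values was not tested.

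A gene was called when its limma p, adjusted over all tested genes, was under 0.05 and its log2 difference was at least 1 in size. Under this rule 1941 mRNAs (11.4%) were higher and 1377 (8.08%) were lower in *tcer-1(tm1452)* mutants than in *tcer-1(glm27)*. All 3 *tcer-1(tm1452)* libraries lay above all 3 *tcer-1(glm27)* libraries for 1924 of the higher mRNAs, against 32.8% of all tested genes, and all 3 lay below for 1348 of the lower mRNAs, against 23.7% of all tested genes. Differences of at least 2 on the log2 scale were found for 682 higher and 582 lower mRNAs, and differences of at least 3 for 35 and 203. The lower mRNAs thus included more of the very large differences. For orientation, 3433 mRNAs (20.2%) were higher and 1280 (7.51%) lower in *tcer-1(tm1452)* than in wildtype, and 2463 (14.5%) were higher and 353 (2.07%) lower in *tcer-1(glm27)* than in wildtype. These comparisons share libraries, so their counts are given side by side only.

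**Figure D1:**
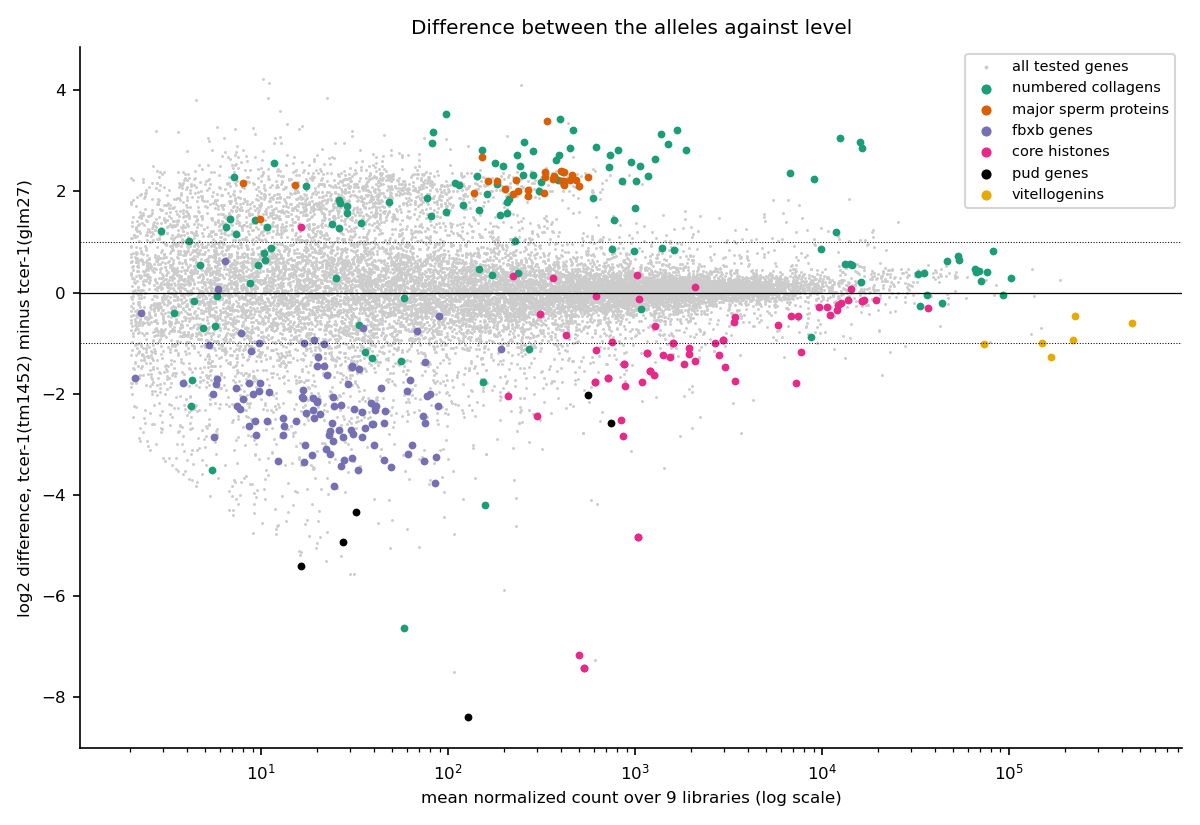
Log2 difference between *tcer-1(tm1452)* and *tcer-1(glm27)* (y axis) against the mean normalized count over 9 libraries (x axis, log scale), with 1 point per tested gene, colors for 6 families and dotted lines at a log2 difference of 1 in either direction. The major sperm protein genes form a tight group near 2, most numbered collagens lie above 0, and the *fbxb*, *pud*, histone and vitellogenin genes lie mostly below 0.

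Transcripts of sperm were higher in *tcer-1(tm1452)*. Of the 35 major sperm protein (MSP) genes, which encode the cytoskeletal protein that moves nematode sperm and also signals to oocytes, 30 were tested and all 30 were higher in *tcer-1(tm1452)*, with a median log2 difference of 2.21, against 0.06 over all tested genes. Summed over the 35 genes, MSP mRNA came to 20242, 21902 and 23318 normalized counts in *tcer-1(tm1452)*, against 4086, 5262 and 4529 in *tcer-1(glm27)* and 556, 762 and 633 in wildtype. The groups did not overlap, and the sum was 4.72 times as high in *tcer-1(tm1452)* as in *tcer-1(glm27)* (exact two-sided permutation test, p = 0.1, which is the smallest value possible with 3 libraries against 3). All 30 MSP genes were also higher than wildtype in either allele. Of these 30 genes, 20 share more than 50% of their exonic 50-base stretches with exons of other annotated genes. Reads could thus be split between genes, and the sum is firmer than any single gene.

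The largest MSP difference was at *msp-33* (chromosome II), with 862, 873 and 1008 normalized counts in *tcer-1(tm1452)*, against 81.8, 107 and 73.3 in *tcer-1(glm27)* and 12.1, 13.6 and 12.6 in wildtype. Its log2 difference between the alleles was 3.39 (SE 0.15, limma adjusted p = 6.19e-10). The most abundant was *msp-19* (chromosome IV), which had 1212, 1399 and 1428 normalized counts in *tcer-1(tm1452)*, against 225, 346 and 272 in *tcer-1(glm27)* and 43.2, 45.1 and 51.7 in wildtype. The log2 difference of *msp-19* was 2.27 (SE 0.13, limma adjusted p = 9.36e-09). *msp-65* and *msp-78* differed by 2.68 and 2.40 on the log2 scale. For both printed genes each group of 3 libraries lay apart from the others, with wildtype lowest.

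A further 70 spermatogenesis genes were tested, among them *spe* genes named for their sperm defects, and 54 were higher and 0 lower in *tcer-1(tm1452)*, with a median log2 difference of 1.83. Their sum was 19531, 20367 and 21061 normalized counts in *tcer-1(tm1452)*, against 7418, 7672 and 6938 in *tcer-1(glm27)* and 4833, 5369 and 5126 in wildtype, a ratio of 2.77 between the alleles (exact permutation p = 0.1). *snf-10* (chromosome V), a transporter-like protein of the sperm membrane needed for activation by male protease signals, had 90.0, 78.5 and 90.2 normalized counts in *tcer-1(tm1452)*, against 13.3, 13.4 and 13.1 in *tcer-1(glm27)* and 0.885, 5.22 and 5.67 in wildtype. Its log2 difference was 2.61 (SE 0.40, limma adjusted p = 0.000107). The small sperm-specific proteins *ssp-36* and *ssp-34* differed by 3.06 and 2.63, and *spe-15*, an unconventional myosin and the most abundant called gene of the list, differed by 1.34. The lowest value of the list, -3.11 at *msd-1*, did not pass the test (limma adjusted p = 0.14). *msd-1* was listed at 574, 0 and 0 normalized counts in *tcer-1(tm1452)* while *msd-3* was listed at 0, 543 and 588, and both had 61.7, 86.3 and 67.2 in *tcer-1(glm27)*. How reads were divided between these copies was not tested.

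The window of 250 bases before the start codon (WBcel235) of *msp-19* is shown as an example of a letter pattern that was frequent in the MSP list. Capitals mark AGATAA, and it and a second pattern, ACGTGAA, were searched on both strands.
*msp-19*, chrIV:5260339-5260588, forward strand: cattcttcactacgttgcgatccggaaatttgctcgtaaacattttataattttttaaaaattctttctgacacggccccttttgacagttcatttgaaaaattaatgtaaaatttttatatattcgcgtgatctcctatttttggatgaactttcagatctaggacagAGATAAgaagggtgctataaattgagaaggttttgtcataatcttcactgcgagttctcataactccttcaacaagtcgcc
AGATAA was present in 19 of 28 MSP windows (67.9%), against 19.2% of the 16125 windows of all tested genes that had one. It was also present in 37.9% of muscle, 36.8% of core histone and 36.2% of early zygotic windows, and in 20.7% of the windows of all higher mRNAs. ACGTGAA was present in 24 of 70 windows of the other spermatogenesis genes (34.3%), against 5.55% of all windows. The same letters were in 21.8% of the windows of all higher mRNAs, 1.48% of those of lower mRNAs and 3.68% of those of mRNAs not called. The patterns were chosen after the windows had been read, copies of a gene family share sequence before their starts, and a match describes letters only.

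**Figure D2:**
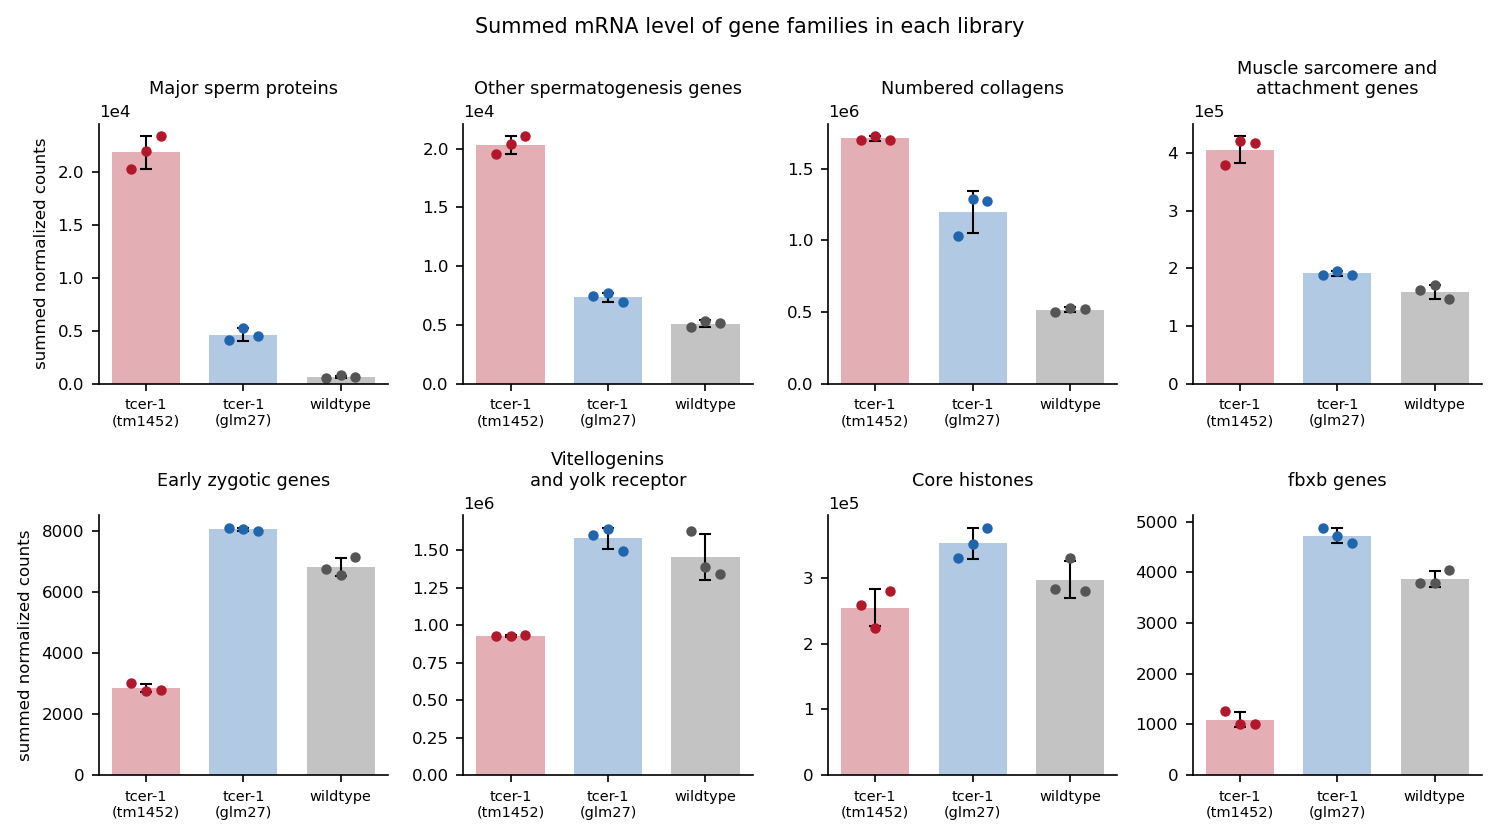
Summed normalized counts (y axis, starting at 0) of 8 gene families in *tcer-1(tm1452)*, *tcer-1(glm27)* and wildtype (x axis), where points are the 3 libraries, bars the means and error bars the SD. MSP, other sperm, collagen and muscle genes are highest in *tcer-1(tm1452)*, and early zygotic, vitellogenin, histone and *fbxb* genes are lowest in it.

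Spermatogenic mRNAs are also targets of a small RNA pathway in which the Argonautes ALG-3 and ALG-4 bind 26G-RNAs made during sperm development. The deposited small RNA table assigns 1399 loci to the ALG-3/4 class of 26G-RNAs, and 1380 of these were tested here as mRNAs. Of them, 768 were higher and 5 lower in *tcer-1(tm1452)*, with a median log2 difference of 1.45. The class holds 22 of the 30 tested MSP genes and 57 of the 70 other spermatogenesis genes. Among the 1301 tested loci of the class outside both sperm lists, 699 were higher and 5 lower, with a median of 1.35. ACGTGAA was present in 24.8% of the windows of these loci. For comparison, 11.4% of all tested genes were higher and 8.08% lower. Of 3593 CSR-1 class mRNAs, 11 (0.306%) were higher and 24 (0.668%) lower. Of 1841 WAGO class mRNAs, 115 (6.25%) were higher and 197 (10.7%) lower, and of 97 ERGO-1 class mRNAs, 7 (7.22%) were higher and 16 (16.5%) lower.

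By the study's text, its mRNA and small RNA data were produced alongside each other. Whether both kinds of library used the same RNA is not known here. In the sRNA-seq libraries the 26G-RNAs themselves stood in the same order. Those of the ALG-3/4 class summed to 1247, 1400 and 1732 RPM (reads scaled to the total of each library) in *tcer-1(tm1452)*, against 296, 310 and 259 RPM in *tcer-1(glm27)* and 49.1, 53.4 and 65.8 RPM in wildtype. The mean was 5.06 times as high in *tcer-1(tm1452)* as in *tcer-1(glm27)* (exact permutation p = 0.1). *tcer-1(tm1452)* replicate 3 stood apart in its piRNA sum, at 15470 RPM against 26049 to 37985 RPM in all other libraries, and without it the ratio was 4.59. ERGO-1 class 26G-RNAs, which oocytes and embryos make, ran the other way, with 92.7, 96.8 and 62.4 RPM in *tcer-1(tm1452)*, against 296, 213 and 187 RPM in *tcer-1(glm27)* and 212, 193 and 237 RPM in wildtype, a ratio of 0.362 (exact permutation p = 0.1). Without *tcer-1(tm1452)* replicate 3 this ratio was 0.408. The mRNAs of the Argonautes, picked after their values were seen, were 549, 609 and 604 normalized counts for *alg-3* in *tcer-1(tm1452)*, against 144, 145 and 130 in *tcer-1(glm27)* and 19.6, 12.4 and 28.7 in wildtype. *alg-4* behaved alike, with a log2 difference of 2.41 between the alleles, against 2.06 for *alg-3*.

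Markers of males were low in every library, and of 9 tested, 0 were higher and 3 lower in *tcer-1(tm1452)*. Their sum was 46.0, 51.5 and 47.9 normalized counts in *tcer-1(tm1452)*, against 63.1, 74.8 and 88.2 in *tcer-1(glm27)* and 39.0, 49.0 and 48.2 in wildtype. *pkd-2*, a polycystin of male sensory neurons, was lower in *tcer-1(tm1452)*, at 0, 1.31 and 1.09 normalized counts, than in *tcer-1(glm27)*, at 9.49, 10.8 and 8.45. *cwp-1* and *cwp-2*, also of these neurons, were called lower by 1.47 and 1.86 on the log2 scale, from values under 12 normalized counts in every library. The call of *cwp-1* was lost with the replicate number as a block (log2 difference -1.47 as before). The count of 3 lower markers was 1 without *tcer-1(tm1452)* replicate 3 or *tcer-1(glm27)* replicate 3. *try-5*, a protease of male seminal fluid, had 10.0, 7.91 and 8.74 normalized counts in *tcer-1(tm1452)*, against 14.2, 17.1 and 26.2 in *tcer-1(glm27)*. Its limma adjusted p was 0.0186 and its log2 difference, -0.99, fell short of the size needed for a call. *lov-1*, *klp-6*, *mab-3*, *cwp-4* and *cwp-5* did not pass the test, with log2 differences of -1.25, -0.33, 0.76, 0.59 and -0.52.

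Genes of the cuticle formed the second large group. Of 131 tested collagens with a *col* number, 74 were higher and 10 lower in *tcer-1(tm1452)*, with a median log2 difference of 1.44. In the comparisons with wildtype 100 of them were higher in *tcer-1(tm1452)* animals and 94 in *tcer-1(glm27)*. The sum of all 159 came to 1703207, 1729930 and 1705544 normalized counts in *tcer-1(tm1452)*, against 1032437, 1290774 and 1275034 in *tcer-1(glm27)* and 499536, 530385 and 520728 in wildtype, a ratio of 1.43 between the alleles (exact permutation p = 0.1). The ratio of the sums was smaller than the median gene's difference, since the most abundant collagens differed less. *col-19*, the adult collagen, had 85560, 83428 and 81158 normalized counts in *tcer-1(tm1452)*, against 47183, 56918 and 57143 in *tcer-1(glm27)* and 24184, 24556 and 24656 in wildtype, a log2 difference of 0.64 that was not called.

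*col-129* (chromosome IV) was the most abundant called collagen. It had 39171, 42914 and 44272 normalized counts in *tcer-1(tm1452)*, against 4840, 6799 and 5870 in *tcer-1(glm27)* and 1076, 950 and 1050 in wildtype, with a log2 difference of 2.86 between the alleles (SE 0.10, limma adjusted p = 3.36e-11). The largest differences were 3.52 at *col-137*, 3.42 at *col-180* and 3.21 at *col-147*. *col-137* had 220, 293 and 285 normalized counts in *tcer-1(tm1452)*, against 18.9, 25.1 and 22.5 in *tcer-1(glm27)* and 6.18, 4.18 and 3.41 in wildtype. In each of these genes the wildtype libraries were the lowest. The window before the start codon of *col-129* is shown with the letters TATAAAA, which resemble a TATA box, in capitals. The match starts 42 bases before the start codon, inside the annotated gene (IV 12108734 to 12110439) and not upstream of it.
*col-129*, chrIV:12110246-12110495, reverse strand: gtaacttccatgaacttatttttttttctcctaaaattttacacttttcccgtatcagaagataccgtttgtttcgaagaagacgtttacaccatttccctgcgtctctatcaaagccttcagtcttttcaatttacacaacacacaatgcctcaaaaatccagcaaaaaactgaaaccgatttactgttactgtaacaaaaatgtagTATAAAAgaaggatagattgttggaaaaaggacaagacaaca
TATAAAA, on either strand, was present in 75 of 130 windows of numbered collagens (57.7%), against 19.9% of the windows of all tested genes, 38.2% of core histone windows and 32.1% of MSP windows.

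The collagens that shape the body or the adult cuticle followed the numbered ones, with exceptions. Of 14 body-shape and blister collagens, 11 were higher and 2 lower in *tcer-1(tm1452)*. *bli-6* had 2016, 2216 and 2470 normalized counts in *tcer-1(tm1452)*, against 376, 507 and 468 in *tcer-1(glm27)* and 103, 73.1 and 95.4 in wildtype, a log2 difference of 2.31. *dpy-13* and *dpy-4*, whose loss shortens the worm, differed by 2.17 and 2.05. The 2 lower members were *dpy-14*, a collagen first made in the embryo, and *dpy-17*. *dpy-14* (chromosome I) was listed at 3.35, 10.5 and 3.27 normalized counts in *tcer-1(tm1452)*, against 982, 844 and 956 in *tcer-1(glm27)* and 1122, 723 and 867 in wildtype, with a log2 difference of -7.27 (SE 0.29, limma adjusted p = 2.22e-10). In contrast to the higher collagens, *tcer-1(glm27)* and wildtype overlapped here. *dpy-17* had 648, 600 and 595 normalized counts in *tcer-1(tm1452)*, against 1944, 1782 and 1980 in *tcer-1(glm27)* and 1680, 1232 and 1364 in wildtype. *col-121*, a lower member of the numbered collagens, was listed at 0 in all 3 *tcer-1(tm1452)* libraries, against 107, 80.8 and 109 in *tcer-1(glm27)* and 88.3, 61.6 and 79.5 in wildtype.

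Of 5 adult cuticle collagens, 4 were higher in *tcer-1(tm1452)*. All 5 are also counted above, among the numbered or the body-shape and blister collagens, and are not a separate group. The log2 differences were 3.20 at *col-7*, 2.71 at *col-62*, 1.96 at *bli-2* and 1.79 at *bli-1*. BLI-1 and BLI-2 build the struts of the adult cuticle. *bli-2* had 171, 198 and 171 normalized counts in *tcer-1(tm1452)*, against 45.4, 48.5 and 43.0 in *tcer-1(glm27)* and 7.93, 4.18 and 4.54 in wildtype. The 6 annular furrow collagens, which form the circumferential grooves, were split: *dpy-8* was higher by 1.74 and *dpy-2* was lower by 1.13 on the log2 scale, and the other 4 were not called. Pharyngeal cuticle genes of the *abu*, *phat* and *pqn* families were called higher for 24 of 72 members and lower for 3 (*pqn-73*, *pqn-84* and *phat-5*, picked after their values were seen). *abu-1*, *abu-6* and *abu-7* differed by 3.19, 2.83 and 2.80 on the log2 scale. More than 50% of the exonic 50-base stretches of each of these genes, and of *col-7* and *col-62*, recur in exons of other genes.

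Cuticlins went mostly the other way. Of 37 cuticlin and zona pellucida domain genes, whose products line cuticle and other apical surfaces, 14 were lower and 3 were higher in *tcer-1(tm1452)* (*cut-2*, *cut-4* and *cutl-6*, all 3 lost without *tcer-1(tm1452)* replicate 3). *noah-1*, which holds the embryonic epidermis together, had 382, 488 and 345.4 normalized counts in *tcer-1(tm1452)*, against 1451, 1329 and 1300 in *tcer-1(glm27)* and 1058, 763 and 830 in wildtype, a log2 difference of -1.76. *cutl-2* was lower by 4.07, *cutl-9* by 3.42 and *cutl-25* by 2.57 on the log2 scale, and without *tcer-1(tm1452)* replicate 3, where it was listed at 0, the difference of *cutl-9* was -2.27. *hch-1*, the astacin protease that lets the embryo hatch, was listed at 0.841, 0 and 0 normalized counts in *tcer-1(tm1452)*, against 249, 221 and 197 in *tcer-1(glm27)* and 119.4, 94.0 and 89.6 in wildtype. The other lists of secreted and matrix genes were mixed. Of all 36 astacin proteases, 7 were higher (19.4%) and 6 lower (16.7%), against 11.4% and 8.08% of all tested genes, and *nas-25* was the highest at 2.66. Of 66 Hedgehog-related and Patched-related genes, many of them made by the epidermis, 12 were higher (18.2%) and 6 lower (9.09%). *grl-16*, the most abundant called member, had 745, 967 and 1125 normalized counts in *tcer-1(tm1452)*, against 131, 193 and 235 in *tcer-1(glm27)* and 118, 108 and 116 in wildtype. The regulators of molting and of cuticle assembly were mostly not called: of 30 members, *nhr-25* and *mlt-11* were lower by 2.33 and 1.73, and *mlt-9* was higher by 1.04, a call that was lost under equal library totals and equal upper quartiles. *nhr-25*, a nuclear receptor of molting and of the embryonic epidermis, had 26.8, 11 and 17.3 normalized counts in *tcer-1(tm1452)*, against 102, 91.5 and 80.9 in *tcer-1(glm27)* and 102, 99.9 and 93.5 in wildtype.

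**Figure D3:**
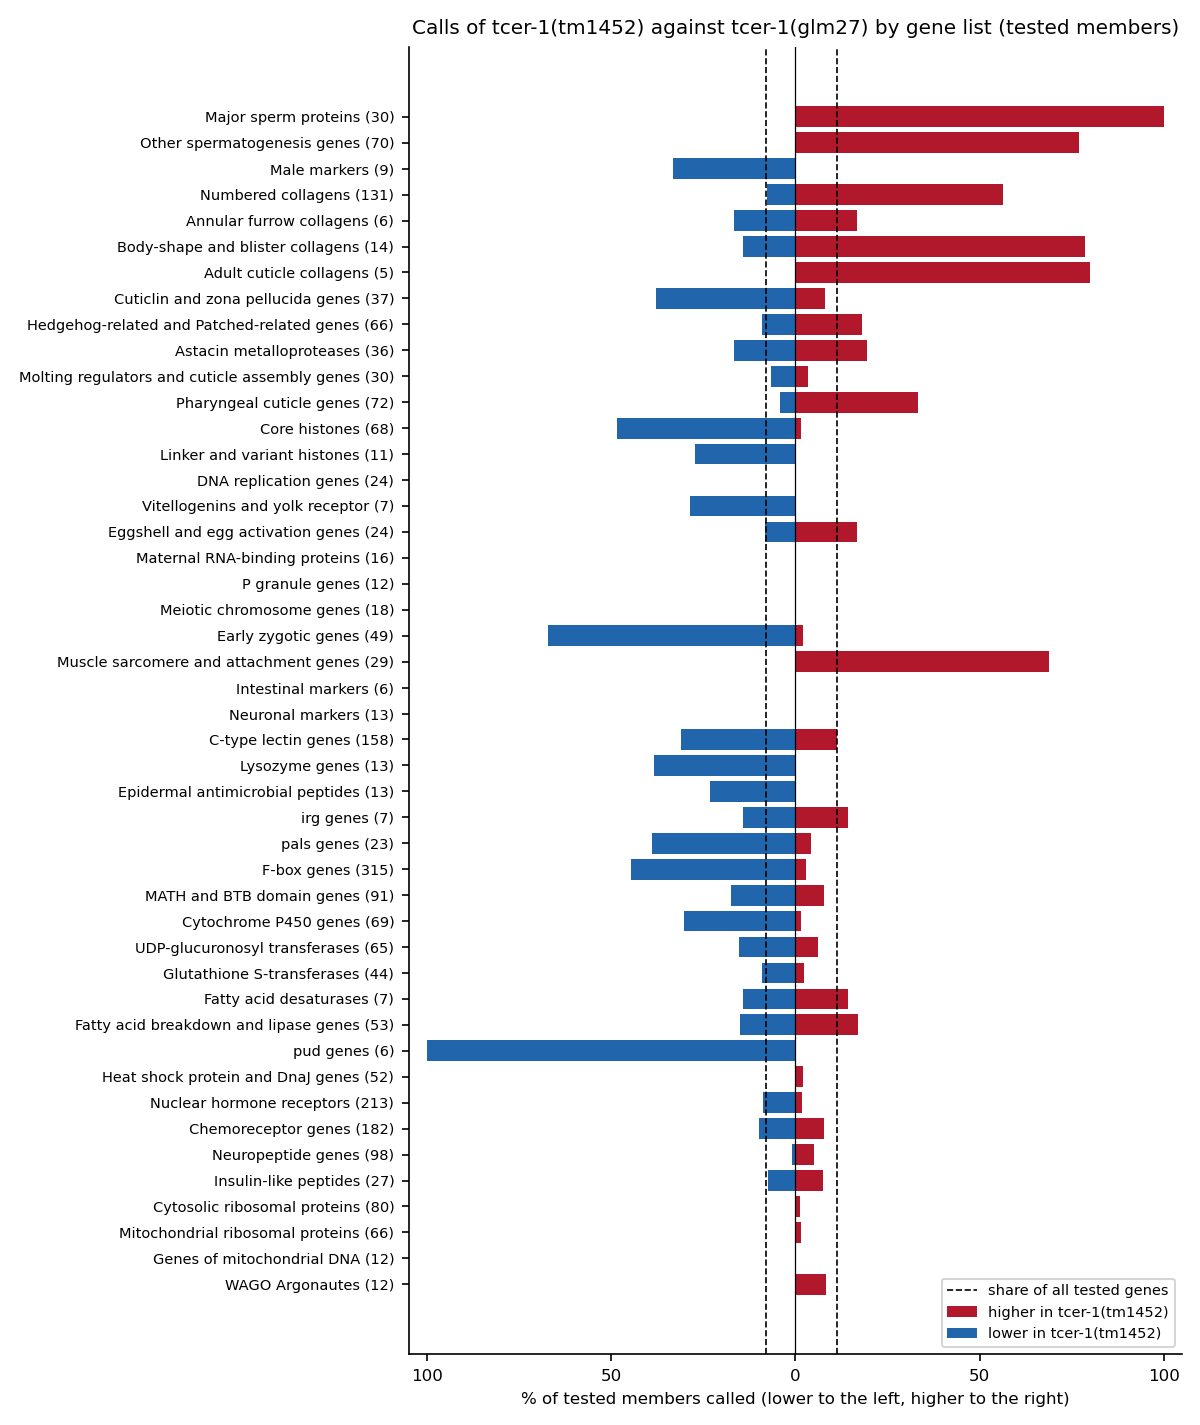
Share of tested members of each gene list called higher (right) or lower (left) in *tcer-1(tm1452)* libraries than in *tcer-1(glm27)* (x axis, % of tested members), with the number of tested members in parentheses and dashed lines at the shares of all tested genes, 11.4% and 8.08%. Sperm, collagen and muscle lists extend far to the right, and the *pud*, early zygotic, histone and F-box lists far to the left.

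Muscle transcripts were higher in *tcer-1(tm1452)*. Of 29 genes of the sarcomere and its attachments, 20 were higher and 0 lower, with a median log2 difference of 1.10, and all 29 had a positive difference. Against wildtype, 26 of the 29 were higher in *tcer-1(tm1452)* animals and 1 in *tcer-1(glm27)*. The sum was 379108, 422199 and 417574 normalized counts in *tcer-1(tm1452)*, against 189389, 195489 and 188581 in *tcer-1(glm27)* and 161912, 170610 and 146203 in wildtype, a ratio of 2.13 between the alleles (exact permutation p = 0.1). *unc-54*, the major myosin heavy chain of body wall muscle, had 43793, 47817 and 47722 normalized counts in *tcer-1(tm1452)*, against 16906, 19833 and 16299 in *tcer-1(glm27)* and 11528, 14728 and 10332 in wildtype, with a log2 difference of 1.40 (SE 0.11, limma adjusted p = 1.02e-07). The giant filament proteins *unc-22* (twitchin) and *ttn-1* (titin) differed by 1.85 and 1.83, and troponin I *tni-1* by 1.85. Genes that mark the intestine and neurons gave no call among 6 and 13 members, with median log2 differences by limma of 0.16 and 0.38. At an unadjusted p under 0.05, 3 intestinal markers were higher and 2 lower, and 8 neuronal markers were higher and 1 lower in *tcer-1(tm1452)*.

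Early embryonic transcripts were lower in *tcer-1(tm1452)*. Of 49 tested genes that are first transcribed in the zygote, 33 were lower and 1 higher (*sdz-3*, at 1.71, picked after its value was seen), with a median log2 difference of -1.78. Their sum was 3014, 2754 and 2792 normalized counts in *tcer-1(tm1452)*, against 8116, 8084 and 8016 in *tcer-1(glm27)* and 6758, 6579 and 7171 in wildtype, a ratio of 0.354 between the alleles (exact permutation p = 0.1). In the comparisons with wildtype 39 members were lower in *tcer-1(tm1452)* animals and 3 in *tcer-1(glm27)*. *vet-2*, a very early transcript, had 783, 691 and 723 normalized counts in *tcer-1(tm1452)*, against 1739, 1677 and 1756 in *tcer-1(glm27)* and 1818, 1882 and 2028 in wildtype, a log2 difference of -1.24 (SE 0.06, limma adjusted p = 1.61e-09). The *sdz* genes, named for their dependence on the maternal factor SKN-1, had the largest differences, with -3.67 at *sdz-25*, -3.52 at *sdz-5* and -3.36 at *sdz-4*. All exonic 50-base stretches of *sdz-25* recur in exons of other genes, so its own value is uncertain. *sdz-5* had 9.21, 9.20 and 6.54 normalized counts in *tcer-1(tm1452)*, against 111, 94.2 and 110 in *tcer-1(glm27)* and 52.1, 71.0 and 65.9 in wildtype. Among members picked after their values were seen, *pes-10* was lower by 1.78, and *end-1* and *end-3*, the GATA factors that specify endoderm, were lower by 2.22 and 1.13 on the log2 scale.

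Lists of transcripts that oocytes store, eggshell genes aside, gave no calls between the alleles. No member was called among 16 maternal RNA-binding proteins, 12 P granule genes, 18 meiotic chromosome genes and 24 DNA replication genes, whose median log2 differences by limma were 0.00, 0.08, 0.16 and -0.06. Smaller differences with an unadjusted p under 0.05 were found in these lists for 4, 4, 13 and 10 members, among them 11 meiotic chromosome genes that were higher and 8 DNA replication genes that were lower in *tcer-1(tm1452)*. *oma-1*, a regulator of oocyte maturation picked as an example, had 2674, 2993 and 2580 normalized counts in *tcer-1(tm1452)*, against 2908, 2500 and 2532 in *tcer-1(glm27)* and 5293, 4914 and 4619 in wildtype, so that both alleles lay below wildtype and overlapped each other. The yolk receptor *rme-2* had a log2 difference of -0.01 between the alleles, and the eggshell protein *cbd-1* of -0.04, and for both the groups overlapped. Of 24 eggshell and egg activation genes, 4 were higher (*cpg-7*, *cpg-18*, *cpg-19* and *cpg-23*) and 2 lower (*cpg-20* and *cpg-24*). The list takes every numbered *cpg* gene by name, and whether the called ones serve the eggshell was not tested. *cpg-7* had 472, 460 and 516 normalized counts in *tcer-1(tm1452)*, against 165, 175 and 177 in *tcer-1(glm27)* and 109, 95.2 and 87.9 in wildtype.

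The vitellogenins, yolk proteins that the intestine makes for the oocytes, were lower in sum in *tcer-1(tm1452)*. With *rme-2*, the 7 genes summed to 925036, 924507 and 934314 normalized counts in *tcer-1(tm1452)*, against 1598034, 1637139 and 1495741 in *tcer-1(glm27)* and 1625974, 1387902 and 1339516 in wildtype, a ratio of 0.588 between the alleles (exact permutation p = 0.1). *vit-3* and *vit-1* were called lower. *vit-3* had 89666, 88981 and 89658 normalized counts in *tcer-1(tm1452)*, against 222630, 227360 and 202760 in *tcer-1(glm27)* and 219760, 192360 and 180240 in wildtype, a log2 difference of -1.28. Of its exonic 50-base stretches 79.0% recur in exons of other genes. *vit-1* had a log2 difference of -1.02, which was -0.96 and not called without *tcer-1(glm27)* replicate 2. The more abundant *vit-6* and *vit-2* had log2 differences of -0.60 and -0.47, with all *tcer-1(tm1452)* libraries below all *tcer-1(glm27)* libraries, and under equal library totals 4 members of the list were called lower.

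Histone transcripts were lower as well. Of 68 tested core histone genes, which package DNA and are made in bulk during replication, 33 were lower and 1 were higher in *tcer-1(tm1452)*, with a median log2 difference of -1.05. The higher gene was *his-70*, at 1.29, named after its value was seen, and its call was lost without *tcer-1(tm1452)* replicate 3. The sum over 72 genes was 259562, 224811 and 281028 normalized counts in *tcer-1(tm1452)*, against 330569, 352310 and 377502 in *tcer-1(glm27)* and 282996, 330790 and 280275 in wildtype, a ratio of 0.722 (exact permutation p = 0.1), with overlap between *tcer-1(tm1452)* and wildtype. More than 50% of the exonic stretches recur in exons of other annotated genes for 45 of the 68 genes, so the value of a single gene is uncertain. This shows at *his-20* and *his-54*, whose exonic stretches all recur in exons of other genes, which were both listed at 291, 0 and 0 normalized counts in *tcer-1(tm1452)*, against 991, 830 and 1769 in *tcer-1(glm27)* and 447, 474 and 0 in wildtype. Their calls, and that of *his-29*, were lost without *tcer-1(tm1452)* replicate 2 or replicate 3.

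*his-44* (chromosome II), an H2B gene and the most abundant called histone, had 3611, 5327 and 4144 normalized counts in *tcer-1(tm1452)*, against 10388, 10525 and 8476 in *tcer-1(glm27)* and 11216, 7915 and 7659 in wildtype, a log2 difference of -1.18 (SE 0.15, limma adjusted p = 1.42e-05). All of its exonic stretches recur in exons of other genes. Among linker histones, *hil-7* was listed at 2.75, 5.62 and 3.78 normalized counts in *tcer-1(tm1452)*, against 154, 127 and 122 in *tcer-1(glm27)* and 226, 151 and 173 in wildtype, a log2 difference of -4.77. *hil-3* and *hil-2* were lower by 1.75 and 1.02, and the call of *hil-2* was lost without *tcer-1(glm27)* replicate 1 (-0.98). Genes that act with histones in S phase differed less: *cdl-1*, which binds the histone mRNA stem loop, and *pcn-1*, the replication clamp, had log2 differences of -0.18 and -0.24. The window before the start codon of *his-44* carries GGGGACAC, in capitals, a pattern that few other windows had.
*his-44*, chrII:13827099-13827348, reverse strand: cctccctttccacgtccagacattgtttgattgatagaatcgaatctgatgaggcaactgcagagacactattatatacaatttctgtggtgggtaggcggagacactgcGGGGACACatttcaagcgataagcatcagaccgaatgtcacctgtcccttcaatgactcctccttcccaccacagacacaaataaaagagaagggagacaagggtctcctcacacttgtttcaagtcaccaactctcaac
GGGGACAC, on either strand, was present in 44 of 68 core histone windows (64.7%), against 0.552% of the windows of all tested genes.

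The largest family of lower transcripts was that of F-box genes, whose products carry substrates to ubiquitin ligases. Of 315 tested genes, 141 were lower and 9 were higher in *tcer-1(tm1452)* animals, and within the list the *fbxb* genes, split off after their values were seen, stood out, with 97 of 106 lower and 0 higher and a median log2 difference of -2.25. Of 159 *fbxa* genes 21 were lower (13.2%) and 8 higher (5.03%), against 8.08% and 11.4% of all tested genes. Of 50 *fbxc* genes 23 were lower (46.0%) and 1 higher (2.0%). The *fbxb* sum was 1267, 998 and 1010 normalized counts in *tcer-1(tm1452)*, against 4887, 4711 and 4591 in *tcer-1(glm27)* and 3785, 3782 and 4051 in wildtype, a ratio of 0.231 between the alleles (exact permutation p = 0.1). Against wildtype, 92 *fbxb* genes were lower in *tcer-1(tm1452)* animals and 0 in *tcer-1(glm27)*. The members were of low level, so that many single differences rest on few reads.

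*fbxc-51* (chromosome II), the most abundant called F-box gene, had 65.5, 62.9 and 65.3 normalized counts in *tcer-1(tm1452)*, against 562, 545 and 559 in *tcer-1(glm27)* and 339, 315 and 352 in wildtype, a log2 difference of -3.09 (SE 0.08, limma adjusted p = 6.2e-12). *fbxb-75* had 16.7, 3.95 and 12 normalized counts in *tcer-1(tm1452)*, against 125.95, 146 and 154 in *tcer-1(glm27)* and 98.0, 93.0 and 117 in wildtype. *fbxa-103* was listed at 0 in all 3 *tcer-1(tm1452)* libraries, against 10.4, 14.3 and 14.1 in *tcer-1(glm27)*. Of 91 genes with MATH or BTB domains, which serve another kind of ubiquitin ligase, 16 were lower and 7 higher, led by *btb-8*, *math-45* and *math-44* at -2.64, -2.48 and -2.39, and *btb-10* was lower by 2.33. *fbxb-63*, picked after its values were seen because it lies in the chromosome V cluster described below, had 9.17, 1.32 and 3.28 normalized counts in *tcer-1(tm1452)*, against 51, 53.9 and 50.4 in *tcer-1(glm27)* and 43.1, 28.2 and 56.8 in wildtype. Its window before the start codon holds ATCGATA, or the same letters on the other strand, 4 times, in capitals, where adjoining matches overlap.
*fbxb-63*, chrV:19303729-19303978, reverse strand: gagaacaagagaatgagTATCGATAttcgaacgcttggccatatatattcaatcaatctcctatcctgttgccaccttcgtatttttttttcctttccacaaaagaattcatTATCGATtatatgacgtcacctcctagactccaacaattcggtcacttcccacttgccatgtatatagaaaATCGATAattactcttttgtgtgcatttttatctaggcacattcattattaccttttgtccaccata
ATCGATA was present in 40 of 98 *fbxb* windows (40.8%), against 6.93% of the windows of all tested genes. It was present in 17.0% of early zygotic windows, 15.6% of MATH and BTB windows, 4.88% of *fbxa* windows and 11.95% of the windows of all lower mRNAs.

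Genes of the antimicrobial response were more often lower than higher in *tcer-1(tm1452)*. Of 158 tested C-type lectin genes, 49 were lower and 18 were higher in *tcer-1(tm1452)*, while against wildtype 37 were higher in *tcer-1(tm1452)* animals and 66 in *tcer-1(glm27)*. *clec-219*, *clec-137* and *clec-197* differed by -5.20, -5.18 and -5.05 on the log2 scale. *clec-197* was listed at 0, 6.63 and 7.67 normalized counts in *tcer-1(tm1452)*, against 125.5, 143 and 131 in *tcer-1(glm27)* and 1.76, 23 and 1.14 in wildtype, so *tcer-1(glm27)* stood above both. Of 13 lysozyme genes 5 were lower and 0 higher: *lys-10*, *lys-6*, *lys-7*, *ilys-2* and *ilys-3*. *lys-7*, a lysozyme of the intestinal defence, had 1299, 1368 and 1304 normalized counts in *tcer-1(tm1452)*, against 6613, 5508 and 6048 in *tcer-1(glm27)* and 2492, 2711 and 2641 in wildtype, a log2 difference of -2.19 (SE 0.06, limma adjusted p = 9.48e-12). The wildtype libraries lay between those of the alleles.

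The epidermal antimicrobial peptides *cnc-2*, *cnc-3* and *cnc-7* were lower by 1.79, 1.40 and 1.15 on the log2 scale and the other 10 tested members were not called. Of 23 *pals* genes, some of which belong to the response to intracellular pathogens, 9 were lower and 1 higher (*pals-32*), a count of lower genes that was 3 with a filter of a mean of 10 and 5 without *tcer-1(glm27)* replicate 3. *pals-33*, *pals-27* and *pals-26* were lower by 2.20, 2.07 and 1.76, at values under 20 normalized counts in every library. *irg-4* was higher by 1.05, a call that was lost without *tcer-1(glm27)* replicate 1, and *irg-2* was lower by 1.43.

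The 6 *pud* genes, named for proteins that are abundant in *daf-2* mutants, were lower in *tcer-1(tm1452)* without exception, and all 6 were higher in *tcer-1(glm27)* than in wildtype. Their sum was 606, 579 and 546 normalized counts in *tcer-1(tm1452)*, against 3674, 3122 and 3471 in *tcer-1(glm27)* and 497, 578 and 484 in wildtype, a ratio of 0.168 between the alleles (exact permutation p = 0.1). Here *tcer-1(glm27)* stood apart, while *tcer-1(tm1452)* overlapped wildtype. *pud-1.2* had 289, 294 and 262 normalized counts in *tcer-1(tm1452)*, against 1799, 1566 and 1700 in *tcer-1(glm27)* and 252, 286 and 265 in wildtype. *pud-2.1* was listed at 0 in all 3 *tcer-1(tm1452)* libraries, against 340, 418 and 259 in *tcer-1(glm27)* and 0, 133 and 0 in wildtype. All exonic stretches of *pud-2.1* and *pud-1.1* recur in exons of other genes, so their reads can be split between genes.

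Among genes of detoxification the cytochrome P450 genes stood out by lower calls. Of 69 cytochrome P450 genes, which oxidize lipids and foreign compounds, 21 were lower and 1 higher (*cyp-31A1*, at 1.07). *cyp-35A2* had 1615, 1301 and 1329 normalized counts in *tcer-1(tm1452)*, against 3814, 3368 and 3127 in *tcer-1(glm27)* and 1904, 1579 and 1770 in wildtype, a log2 difference of -1.28. The largest differences were -3.64 at *cyp-29A4*, -2.84 at *cyp-35B1* and -2.61 at *cyp-35B2*. Of 65 UDP-glucuronosyl transferases, which conjugate small molecules, 10 were lower and 4 higher. *ugt-53* had 145, 161 and 161 normalized counts in *tcer-1(tm1452)*, against 706, 672 and 722 in *tcer-1(glm27)* and 116, 119.1 and 130.5 in wildtype. Among 44 glutathione S-transferases 4 were lower (9.09%, against 8.08% of all tested genes), with a median log2 difference of 0.05. The lower ones were *gst-33*, *gst-29*, *gst-22* and *gst-21*, and *gst-24* was higher, with 538, 469 and 581 normalized counts in *tcer-1(tm1452)*, against 42.5, 78.2 and 69.0 in *tcer-1(glm27)* and 27.2, 27.2 and 19.3 in wildtype.

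Of 7 fatty acid desaturases, *fat-7* was higher and *fat-5* lower in *tcer-1(tm1452)*. *fat-7*, which makes oleic acid from stearic acid, had 8289, 8860 and 8394 normalized counts in *tcer-1(tm1452)*, against 2613, 3416 and 3146 in *tcer-1(glm27)* and 2959, 2988 and 3488 in wildtype, a log2 difference of 1.49 (SE 0.09, limma adjusted p = 7.42e-09). *fat-5*, which acts on palmitic acid, had 344, 350 and 394 normalized counts in *tcer-1(tm1452)*, against 894, 954 and 1066 in *tcer-1(glm27)* and 662, 772 and 836 in wildtype. *fat-2* had a log2 difference of 0.57, *fat-6* of 0.30, *fat-4* of 0.24, *fat-1* of 0.04 and *fat-3* of -0.22, none of them called. Of 53 genes of fatty acid breakdown and lipases, 9 were higher (17.0%) and 8 lower (15.1%), against 11.4% and 8.08% of all tested genes. *acdh-8*, *acs-15* and *acs-10* led the higher ones at 2.10, 1.93 and 1.92, and *lipl-5*, a lipase and the most abundant called member, was lower by 1.23 on the log2 scale.

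In the signalling and housekeeping lists the shares called were near or below those of all tested genes, 11.4% higher and 8.08% lower. Of 213 nuclear hormone receptors 19 were lower (8.92%) and 4 higher (*nhr-6*, *nhr-234*, *nhr-266* and *nhr-216*). Of 27 insulin-like peptides 2 were lower and 2 higher (7.41% each). *ins-31* was listed at 0, 0 and 4.39 normalized counts in *tcer-1(tm1452)*, against 86.7, 63.9 and 99.7 in *tcer-1(glm27)* and 3.51, 7.32 and 4.55 in wildtype. Of 98 neuropeptide genes 5 were higher, *nlp-4*, *nlp-26*, *flp-25*, *flp-21* and *nlp-18*, and *nlp-59* was lower, a higher count that was 3 under equal library totals and 2 without *tcer-1(tm1452)* replicate 1. Single calls were made for *hsp-12.2* among 52 heat shock genes, *mrpl-42* among 66 mitochondrial ribosomal proteins, *rpl-42* among 80 cytosolic ribosomal proteins and *wago-10* among 12 WAGO Argonautes, with log2 differences of 1.05, 1.03, 1.88 and 1.55. The calls of *hsp-12.2* and *mrpl-42* were lost under equal library totals (0.98 and 0.96), and that of *wago-10* without *tcer-1(glm27)* replicate 2 (1.49). The 80 cytosolic ribosomal proteins still leaned higher in *tcer-1(tm1452)*, with 76 positive log2 differences and a median of 0.36. At an unadjusted limma p under 0.05, 70 of them were higher and 1 lower. Their summed counts were 1.275 times those of *tcer-1(glm27)*, a ratio not checked under other scalings. At the same threshold 30 mitochondrial ribosomal proteins were higher and 6 lower, and 24 heat shock genes were higher and 5 lower. None of the 12 tested genes of mitochondrial DNA was called by limma, and 0 had an unadjusted p under 0.05.

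Several of the largest differences were at genes outside the families described so far. *F08G2.5* (chromosome II) had 689, 611 and 715 normalized counts in *tcer-1(tm1452)*, against 37.5, 45.1 and 32.5 in *tcer-1(glm27)* and 21.9, 18.8 and 25.1 in wildtype, a log2 difference of 4.10 (SE 0.16, limma adjusted p = 1.88e-10). It was the only one of the 10 largest increases outside the collagens and MSP genes with over 100 normalized counts in every *tcer-1(tm1452)* library. *Y73B3B.1*, *fipr-6*, *C08F11.6* and the chemoreceptor list members *srw-71* and *srw-68* differed by 3.59 to 4.22 on the log2 scale, with values of 0 to 2.72 normalized counts in every *tcer-1(glm27)* library. *C24H11.2* had 62.04, 55.2 and 67.6 normalized counts in *tcer-1(tm1452)*, against 11.4, 0 and 5.62 in *tcer-1(glm27)*, and its log2 difference of 3.84 was 2.79 without *tcer-1(glm27)* replicate 2. Exonic 50-base stretches that recur in exons of other genes made up 93.0% at *C24H11.2*, 90.4% at *Y73B3B.1* and 51.4% at *fipr-6*. In the other direction *F59B2.12* had 2.53, 17.0 and 11.9 normalized counts in *tcer-1(tm1452)*, against 519, 518 and 629 in *tcer-1(glm27)* and 3.54, 44.9 and 37.4 in wildtype. *try-8*, a trypsin-like protease by name, was listed at 0.838, 2.63 and 0 in *tcer-1(tm1452)*, against 89, 80.7 and 93.6 in *tcer-1(glm27)* and 0, 12.5 and 4.54 in wildtype. For both, *tcer-1(glm27)* was the group that stood apart.

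**Figure D4:**
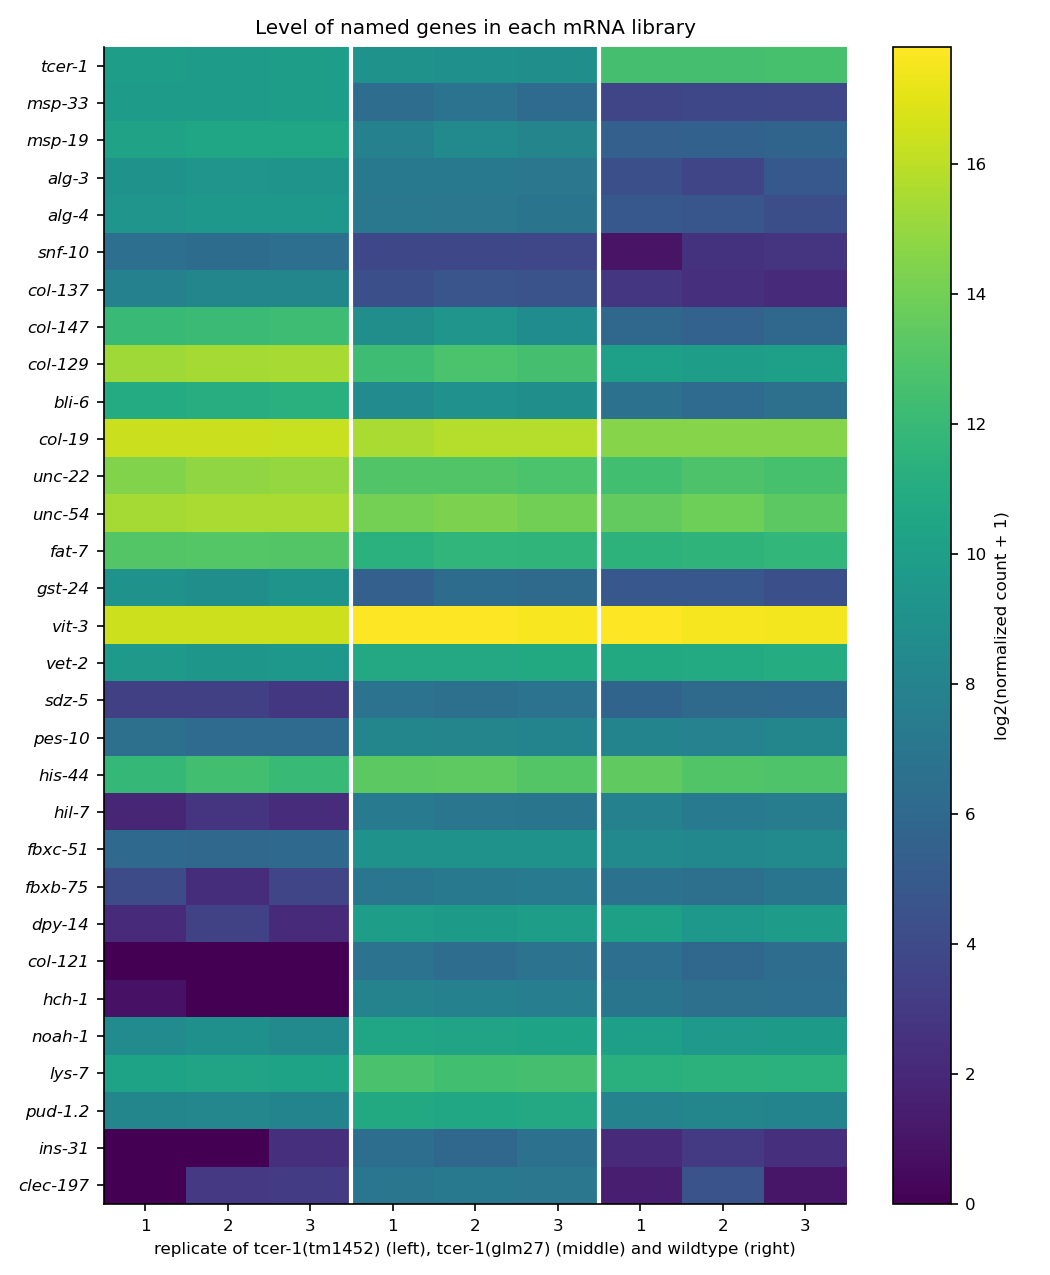
Level of named genes (y axis) in each mRNA library (x axis, replicates of *tcer-1(tm1452)*, *tcer-1(glm27)* and wildtype from left to right), colored by log2(normalized count + 1). Sperm and muscle genes, and the collagens other than *dpy-14* and *col-121*, step down across the groups. *dpy-14*, *hil-7* and *col-121* are dark only in *tcer-1(tm1452)*, and *pud-1.2*, *ins-31* and *clec-197* are highest in *tcer-1(glm27)*.

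Called genes were unevenly spread over the chromosomes. Higher mRNAs made up 16.1% of the tested genes of chromosome IV and 13.6% of chromosome I, but 6.56% of the X chromosome, against 11.4% of all tested genes. Lower mRNAs made up 12.6% of the tested genes of chromosome II and 10.8% of chromosome V, against 5.36% on chromosome III and 8.08% over all. Within 1 Mb of *tcer-1*, 45 of 434 tested genes were higher and 26 lower, shares of 10.4% and 5.99%. In windows of 200 kb with at least 20 tested genes (462 windows), more than 50% of the genes were lower in 2 windows and more than 50% were higher in 0. The window from 19.2 Mb of chromosome V had 25 of 37 tested genes lower, 11 of them *fbxb* genes, and the window from 1.6 Mb of chromosome II had 35 of 57 lower, 17 of them *fbxb* genes. The densest windows of higher mRNAs lay on chromosome IV from 5.0, 9.8 and 5.2 Mb, with 19 of 40, 22 of 50 and 24 of 56 tested genes higher, among them 3, 4 and 5 MSP genes. From 8.8 Mb of chromosome V, 17 of 45 tested genes were lower, of which 12 were histone genes. These clusters were picked for their counts. The families named made up only a part of the called genes in each, and what the remaining called genes share was not tested.

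**Figure D5:**
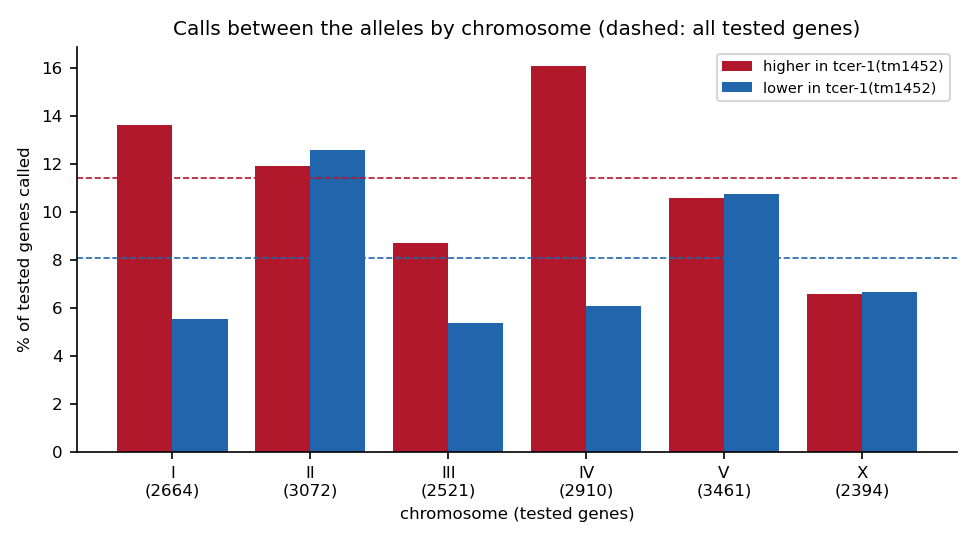
Share of the tested genes of each chromosome (x axis, number of tested genes in parentheses) called higher or lower in *tcer-1(tm1452)* libraries than in *tcer-1(glm27)* (y axis, %), with dashed lines at the shares over all tested genes. Higher mRNAs peak on chromosome IV at 16.1% and lower mRNAs on chromosome II at 12.6%, and the X chromosome has the smallest share of higher mRNAs.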

How the data were processed

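From the raw reads, the authors made the mRNA table with fastp, RSEM and STAR on the WormBase WS279 release and deposited counts divided by DESeq2 size factors, here called normalized counts, which are a signal without a physical unit and not whole counts. The authors deposited the small RNA table as RPM per feature, made with tinyRNA; only the sums of its classes were used. Every column was mapped to a sample.

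From these values, log2(normalized count + 1) was compared in R 4.3.3 by limma 3.58.1 (eBayes with a mean-variance trend after lmFit and contrasts.fit). All 9 mRNA libraries shared a fit, and p-values were adjusted by Benjamini and Hochberg's method for the 17037 genes with a mean of at least 2. Genes with a log2 difference of at least 1 in size and an adjusted p under 0.05 were called. Fold changes of low genes are understated on this scale, and a difference against a group at 0 depends on the pseudocount. Sums were compared by two-sided exact permutation tests. On simulated data for this comparison, with 17037 genes, the method recovered 48 of 50 genes changed 2.5-fold, 38 of 50 changed 0.4-fold, 50 of 50 changed 4-fold and 49 of 50 changed 0.25-fold, with 6 false calls among 16837 unchanged genes. The changed genes were all drawn from those with a mean of at least 10, so recovery of lower genes was not measured. Only 200 genes were changed in the simulation, against 3318 called in the data.

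The 46 gene lists, matched by gene name, and all other choices were made with earlier results of these data known. The name pattern for chemoreceptors also takes genes that are not receptors. Of 182 tested, 14 were higher (7.69%) and 18 lower (9.89%), against 11.4% and 8.08% of all tested genes. The genes named are *tcer-1*, the 10 largest calls in either direction with libraries that do not overlap, up to 3 genes of each list in the direction most of its calls have, the most abundant called gene of a list, and all male marker, adult cuticle and desaturase genes; all other genes named in the text were chosen after their values were seen. Positions and windows are from WBcel235 (RefSeq genome, Ensembl 115 genes), which matched 17034 of the 17037 tested genes. To measure shared sequence, every exonic stretch of 50 bases was looked for, on either strand, in the exons of all other annotated genes. Exons of an overlapping gene thus count as shared. For *tcer-1* the rest of the genome was searched as well. Mutant sequences in *tcer-1(tm1452)* were not analysed here. The guides are those of the study's methods. Strand use in counting is not given in the sources used here, so overlapping genes are uncertain. Many named genes overlap a gene on the other strand. Examples are *col-121*, *clec-137*, *F59B2.12*, *vit-3*, *msp-33*, *col-19*, *col-147*, *snf-10*, *bli-1* and *bli-2*. Some, such as *spe-15*, *unc-22* and *ttn-1*, also overlap a gene on the same strand, while *hch-1* overlaps none. Replicate numbers did not pair the libraries of the alleles (correlation of deviations -0.04 to 0.03). Figures were drawn in matplotlib 3.10.9, and other computations used scipy 1.17.1, pandas 2.3.3 and numpy 2.4.6 under Python 3.11.15.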

Additional observations from a re-analysis of the deposited data

How the results depend on the processing

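The counts of 1941 higher and 1377 lower mRNAs stayed within 1.5 times of these values under every alternative that was run: equal totals, equal upper quartiles, median of ratios, the 6 libraries of the alleles alone, eBayes without a trend, a threshold of 0.01 for the adjusted p, a minimum mean of 10 or none at all, pseudocounts of 5 and 0.5, ratios of group means, and each library left out in turn. The lowest counts, 1564 and 1016, came with a filter of a mean of 10, which tests fewer genes. With each library left out in turn, 1744 to 1962 mRNAs were higher and 1271 to 1396 lower. With the replicate number as a block, 1932 were higher and 1367 lower, and 3267 of the 3318 called mRNAs were called in the same direction; of the named genes *cwp-1* alone lost its call. The numbers do not pair the libraries. The ratios of the summed lists and of the small RNA classes kept their direction. Of 1344 list counts under the alternatives, 64 fell and 16 rose by over 1.5 times, mostly in lists with few calls, and of 3087 values of named genes, 71 lost and 7 gained a call. Among the ratios and the named genes with a call, no direction was reversed. Named genes without a call were not checked for a change of direction. The small RNA sums without *tcer-1(tm1452)* replicate 3 were added after the values had been seen. Depth limits genes near the filter, where 1 read is worth about 1 normalized count.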
